A study of Mus musculus with 12 samples.

Results

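Among the splicing clusters measured in newly made RNA from mouse embryonic stem cells, 493 held exactly 2 introns that shared a splice site at one end and whose alternative sites at the other end lay more than 1000 and up to 10000 nt apart. They were picked by intron coordinates alone, from 8706 clusters in all, of which 7263 were tested, and all 493 were tested. The cells (129S x Cast, female, with doxycycline-inducible *Xist*) carry FKBP12(F36V) at the METTL3 C-terminus in every sample, so that the small molecule dTAG-13 sends METTL3 to degradation. Of the 12 samples, 6 had dTAG-13 for 3 h (dTAG) and 6 were untreated (Ctrl), each group with 3 replicates of each of the clones C3 and H5, and all were then labelled with 4-thiouridine (4sU) for 30 min before the labelled RNA was sequenced. The cells grew on inactivated mouse fibroblasts as feeders. Among marker genes, 6 of 8 for embryonic stem cells (*Nanog*, *Esrrb*, *Zfp42*, *Sall4*, *Klf2* and *Klf4*) and 1 of 8 for feeder fibroblasts (*Fn1*) had a tested cluster, which says only that they were spliced and covered, since the tables give no expression level. In such bulk samples fewer cells of a type and less RNA per cell cannot be told apart. Cells without the tag that received dTAG-13 are not among the samples used here.

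METTL3 is the catalytic subunit of the complex that methylates adenosine in RNA to N6-methyladenosine (m6A), a mark added while RNA is being made and read by proteins with a YTH domain. A 5′ splice site (donor) opens an intron with the bases GT, and a 3′ splice site (acceptor) closes it with AG. Where the spliceosome can pair one donor with either of a pair of acceptors, or the reverse, and these lie kilobases apart, the choice decides whether a long stretch of RNA is kept or removed, and it often goes with an alternative first exon, an alternative last exon or a skipped internal exon. Below, the nearer site is the one used by the shorter intron, the farther site the one used by the longer intron, and the stretch between them is the alternative part.

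The measure is the percent spliced in (PSI), given as a fraction: the share of a cluster's split reads that use an intron. The tables hold 1 fitted PSI per condition for each intron, from both clones together, and 1 likelihood-ratio test per cluster across the samples. Values of single samples and read counts are not part of them, so no spread between replicates can be set beside a PSI, the depth behind it is unknown, and the error enters only through the test. With 2 introns the shares sum to 1, so the PSI of the longer intron describes the cluster, a higher share may come from fewer reads of the other intron, and deltaPSI is its PSI in dTAG minus that in Ctrl. A cluster is called at an adjusted p under 0.05, after Benjamini-Hochberg adjustment over all 7263 tested clusters.

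Splice motifs placed 307 of the 493 clusters as alternative 5′ splice sites and 186 as alternative 3′ splice sites, and the strand of the motif was that of the gene in 485 of 485 clusters with a gene name. They fell in 451 genes with a single name, 8 clusters had no gene name and 7 had several. The sites lay a median of 2774 nt apart (quartiles 1706 and 4410 nt), the longer intron had a median length of 4580 nt and the shorter of 1286 nt. In GENCODE vM21 both introns were annotated in 235 clusters, the longer intron alone in 229, the shorter alone in 19 and neither in 10. The longer intron was the major form in 410 clusters in dTAG and 408 in Ctrl, with a median PSI of 0.913 in dTAG and 0.908 in Ctrl.

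Of the 493 clusters 7 were called (1.42%), against a background of 0.702% of all tested clusters and 0.551% of all 3448 clusters of 2 introns with a shared site. These were *Ythdc1*, *Hcfc1*, *Ppp1r15b*, *Acin1*, *Ccdc88c*, *Wdr26* and *Fbxo3*. In 6 of the 7 the longer intron rose, and in *Wdr26* it fell. The competing sites are shown first for the 4 alternative 5′ splice sites, since these are the sequences between which the choice fell. Each run is the reference (mm10/GRCm38) on the gene's strand, 10 exon and 20 intron bases, with the GT in capitals.
*Ythdc1* farther donor, chr5:86828112-86828141 (+): atgtgggaagGTtagaaacgttctttggac
*Ythdc1* nearer donor, chr5:86829470-86829499 (+): caagaaagcgGTatgtttattttataacca
*Hcfc1* farther donor, chrX:73950333-73950362 (-): caacagaatgGTaatgtggtccgtgtctgt
*Hcfc1* nearer donor, chrX:73949178-73949207 (-): tcaaaccaagGTaagtagaagtgtccggta
*Ppp1r15b* farther donor, chr1:133131901-133131930 (+): gtcggaccagGTactggaccaaattgcttt
*Ppp1r15b* nearer donor, chr1:133133606-133133635 (+): gagaaaaaagGTttgttcccttttacatga
*Acin1* farther donor, chr14:54651697-54651726 (-): aaagaaagagGTaactagccaagccacctg
*Acin1* nearer donor, chr14:54649512-54649541 (-): aagatcccagGTgtgagatggtacctggaa

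For the 3 alternative 3′ splice sites, each run holds 30 intron bases, ending in the AG in capitals, and 5 exon bases.
*Ccdc88c* farther acceptor, chr12:100923364-100923398 (-): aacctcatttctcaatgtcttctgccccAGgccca
*Ccdc88c* nearer acceptor, chr12:100925646-100925680 (-): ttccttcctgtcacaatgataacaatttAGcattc
*Wdr26* farther acceptor, chr1:181177827-181177861 (-): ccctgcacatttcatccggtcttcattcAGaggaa
*Wdr26* nearer acceptor, chr1:181180644-181180678 (-): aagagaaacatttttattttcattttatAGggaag
*Fbxo3* farther acceptor, chr2:104059852-104059886 (+): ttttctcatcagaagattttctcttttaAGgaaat
*Fbxo3* nearer acceptor, chr2:104055971-104056005 (+): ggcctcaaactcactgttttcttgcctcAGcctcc

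**Figure D1:**
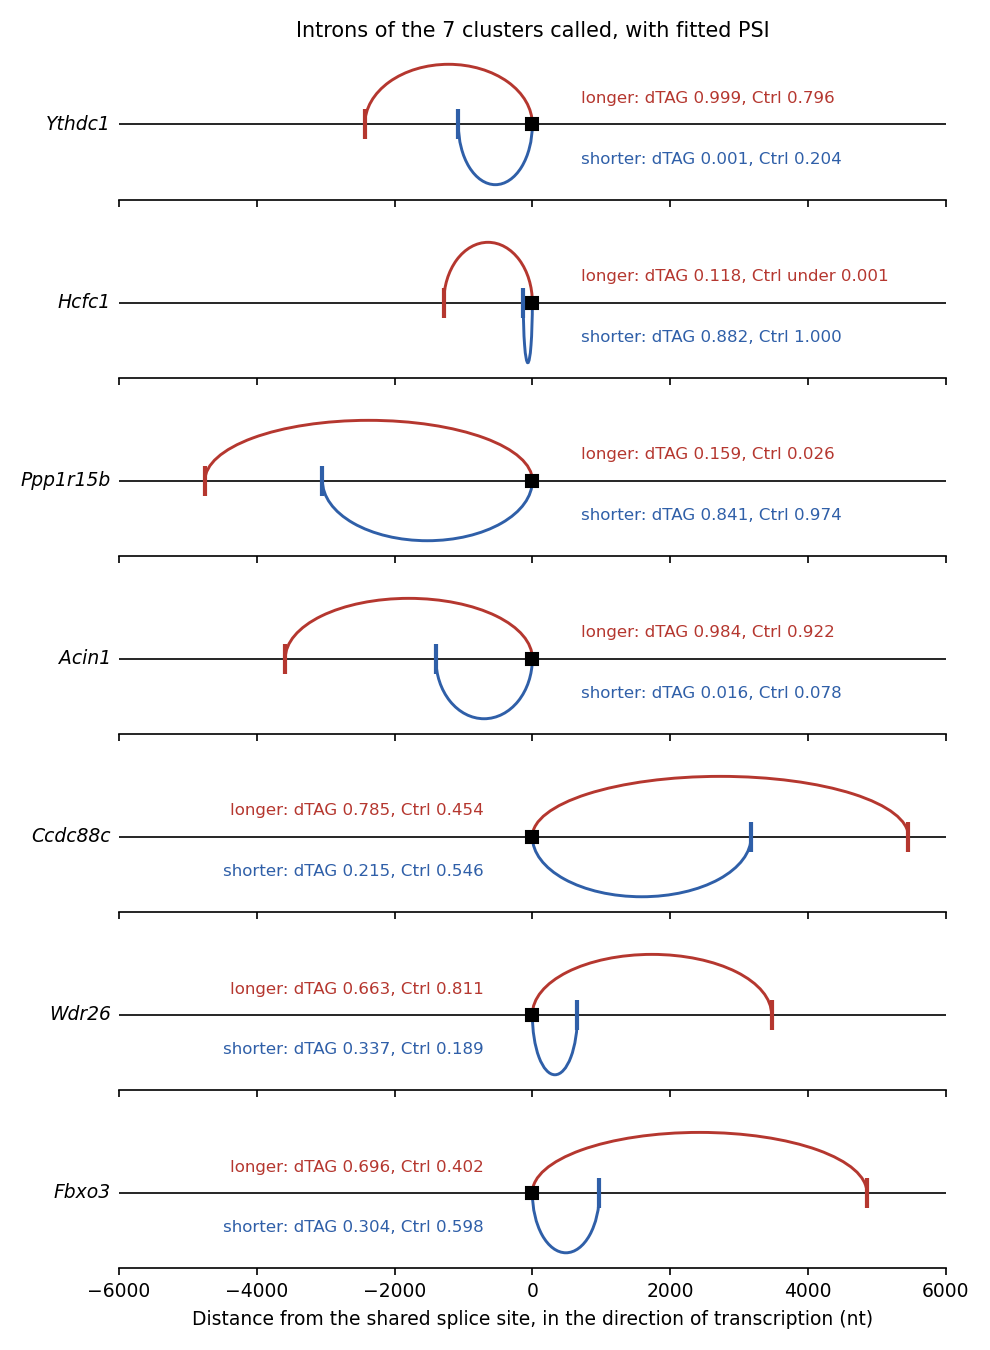
Introns of the 7 called clusters, drawn to scale from the shared splice site (black square, at 0) in the direction of transcription, in nt. Red arcs and ticks are the longer intron, blue ones the shorter, with the fitted PSI of each in dTAG and Ctrl. The first 4 share the acceptor and the last 3 share the donor, and the red value is higher in dTAG in all but *Wdr26*.

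*Ythdc1* encodes the nuclear YTH-domain reader of m6A. Its longer intron (chr5:86828122-86830553, 2432 nt) had a PSI of 0.999 in dTAG and 0.796 in Ctrl, and its shorter intron (chr5:86829480-86830553, 1074 nt) had 0.000656 in dTAG and 0.204 in Ctrl. Use of the nearer donor was thus close to 0 after the treatment. The adjusted p of 9.99e-07 was the smallest of the 493. Transcripts annotated with the longer intron are protein-coding, while those with the shorter intron are annotated as nonsense-mediated decay or as processed transcripts without a coding sequence. The gene's other 3 tested clusters had p of at least 0.0255 and adjusted p of at least 0.583.

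*Hcfc1* encodes a chromatin-bound cofactor of transcription. The longer intron (chrX:73949066-73950352, 1287 nt), which is not in the annotation, had a PSI of 0.118 in dTAG and was fitted at 8.51e-09 in Ctrl. The shorter intron (chrX:73949066-73949197, 132 nt) had 0.882 in dTAG and 1 in Ctrl, within rounding. The adjusted p was 5.65e-05. The Ctrl value lies at the edge of what the fit allows, so no fold is given. The nearer donor matched the consensus CAGGTAAGT at 8 of 9 bases and the farther donor at 5 of 9.

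*Ppp1r15b* encodes a regulatory subunit that directs protein phosphatase 1 to a phosphorylated translation initiation factor. Here the longer intron (chr1:133131911-133136662, 4752 nt) had a PSI of 0.159 in dTAG and 0.0257 in Ctrl, and the shorter one (chr1:133133616-133136662, 3047 nt) had 0.841 in dTAG and 0.974 in Ctrl, with an adjusted p of 0.000364. Both introns are annotated, the shorter in a protein-coding transcript. Both donors matched the consensus at 6 of 9 bases. In this gene and in *Hcfc1* the longer intron remained the minor form in both conditions.

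*Acin1* encodes acinus, an RNA-binding protein that associates with the exon junction complex. Its longer intron (chr14:54648131-54651716, 3586 nt) rose to a PSI of 0.984 in dTAG, against 0.922 in Ctrl, with an adjusted p of 0.00213. The shorter intron (chr14:54648131-54649531, 1401 nt) had 0.0164 in dTAG and 0.0782 in Ctrl. It starts at an annotated first exon of a processed transcript, while the longer one lies in protein-coding transcripts. A deltaPSI of 0.06 made this the smallest change of the 7.

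*Ccdc88c* encodes a Dishevelled-binding protein of Wnt signalling, and it had the largest change of the 7. Its longer intron (chr12:100923369-100928826, 5458 nt) had a PSI of 0.785 in dTAG and 0.454 in Ctrl, a deltaPSI of 0.33 with an adjusted p of 0.00605, so the major form was the longer intron in dTAG and the shorter intron (chr12:100925651-100928826, 3176 nt) in Ctrl. Both introns are annotated in protein-coding transcripts, and the nearer acceptor joins an internal exon. Before the AG, the farther acceptor had C or T at 14 of 18 bases and the nearer one at 9 of 18. A second of the 493 clusters lies in this gene, with sites 9535 nt apart, and had PSI of 0.967 in dTAG and 0.942 in Ctrl with a p of 0.118.

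*Wdr26* and *Fbxo3* both encode subunits of ubiquitin ligases, and they moved in opposite directions. In *Wdr26* the longer intron (chr1:181177832-181181303, 3472 nt) fell to a PSI of 0.663 in dTAG, against 0.811 in Ctrl, with an adjusted p of 0.00993, and the shorter one (chr1:181180649-181181303, 655 nt) had 0.337 in dTAG and 0.189 in Ctrl. In *Fbxo3*, which encodes an F-box protein, the longer intron (chr2:104055027-104059881, 4855 nt) had 0.696 in dTAG and 0.402 in Ctrl, a deltaPSI of 0.29 with an adjusted p of 0.022, and the shorter one (chr2:104055027-104056000, 974 nt) had 0.304 in dTAG and 0.598 in Ctrl. In *Fbxo3* the nearer acceptor joins an annotated last exon of a processed transcript, and the farther one leads to the last exon of protein-coding transcripts. The nearer acceptor lies in a repeat of the soft-masked reference in both genes.

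**Figure D2:**
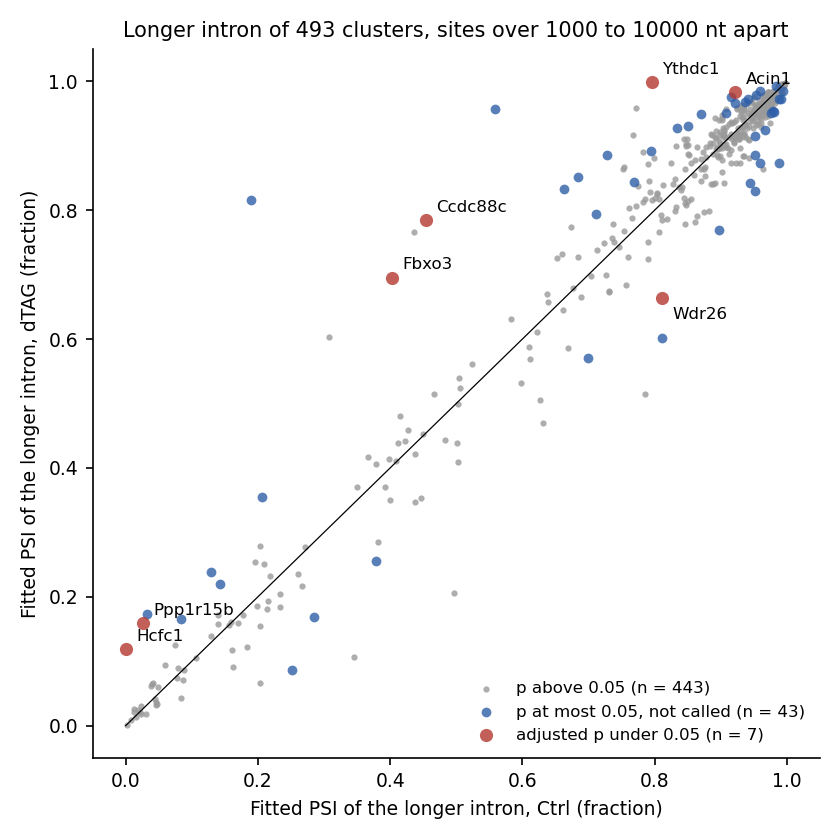
Fitted PSI of the longer intron in dTAG (y axis) against Ctrl (x axis), both as a fraction, for all 493 clusters. The line marks equal values. Red points are the 7 called clusters, blue the 43 others with p of at most 0.05 and grey the 443 with a larger p. Most points sit at the upper right near the line, and 6 of the 7 red points lie above it.

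At the wider threshold of an unadjusted p of at most 0.05 there were 50 clusters (10.1%), against a background of 6.84% of all tested clusters and 7.08% of all clusters of 2 introns with a shared site. The longer intron was higher in dTAG in 30 of the 50 and lower in 20, and the 30 are 6.09% of the 493, against a background of 3.57% for that direction among all clusters of 2 introns with a shared site. Over all 493 the longer intron was higher in 248 and lower in 245, with a median deltaPSI of 0.00. Where the longer intron was the minor form in Ctrl, it was higher in dTAG in 10 of 13 clusters of the 50, and where it was the major form, in 20 of 37. The Ctrl PSI that makes this split also enters deltaPSI, and a low one has little room to fall. No conclusion is therefore drawn from these counts.

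Between an adjusted p of 0.05 and 0.2 lay 6 further clusters, none of them called. *Rps6kb1*, the ribosomal protein S6 kinase downstream of mTOR, had a PSI of 0.173 in dTAG and 0.0325 in Ctrl (adjusted p of 0.0604), with an unannotated farther acceptor. *Ing1*, a reader of methylated histone tails, had 0.794 in dTAG and 0.712 in Ctrl (adjusted p of 0.0789), and *Trappc13*, of the TRAPP trafficking complex, had 0.886 in dTAG and 0.729 in Ctrl (adjusted p of 0.0884). All 3 had the higher value in dTAG. *Xpo6*, an export receptor for actin, had 0.829 in dTAG and 0.952 in Ctrl (adjusted p of 0.127). *Spen*, an RNA-binding repressor needed for silencing by *Xist*, had 0.833 in dTAG and 0.663 in Ctrl (adjusted p of 0.156), and *Hprt*, an enzyme of purine salvage, had 0.973 in dTAG and 0.992 in Ctrl (adjusted p of 0.195).

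The next 12 clusters by p had adjusted p of 0.294 to 0.568. The longer intron had the lower PSI in dTAG in the Hippo kinase gene *Stk4* (0.873 in dTAG, 0.959 in Ctrl), in *Brf1*, a subunit of the RNA polymerase III factor TFIIIB (0.169 in dTAG, 0.284 in Ctrl), and in the semaphorin receptor gene *Nrp2* (0.952 in dTAG, 0.981 in Ctrl). The same order held in *Fam149b* (0.087 in dTAG, 0.251 in Ctrl), in the ubiquitin ligase gene *Cop1* (0.874 in dTAG, 0.989 in Ctrl), in the SUMO ligase gene *Pias2* (0.602 in dTAG, 0.811 in Ctrl) and in *Slc25a3*, the mitochondrial phosphate carrier (0.985 in dTAG, 0.994 in Ctrl). It was higher in dTAG in the centrosomal gene *Alms1* (0.166 in dTAG, 0.0843 in Ctrl), in the actin-binding gene *Rai14* (0.985 in dTAG, 0.96 in Ctrl) and in *Rcsd1*, whose product binds actin capping protein (0.355 in dTAG, 0.206 in Ctrl). *Glo1*, which encodes a glyoxalase that detoxifies methylglyoxal, had 0.957 in dTAG and 0.558 in Ctrl with a p of 0.02. Lower and higher values in dTAG were thus mixed in this range, 7 against 5.

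The remaining 25 clusters with a p of at most 0.05 had adjusted p of 0.582 to 0.721, and the longer intron was higher in dTAG in 15 and lower in 10, with deltaPSI between -0.13 and 0.17. In *Zfp65* and in *Ddx19b*, which encodes an RNA helicase of mRNA export, both introns start at annotated first exons, and the longer one was the minor form, with 0.256 in dTAG and 0.379 in Ctrl for *Zfp65* and 0.22 in dTAG and 0.142 in Ctrl for *Ddx19b*. *Lrrfip1* had 0.238 in dTAG and 0.129 in Ctrl, with an annotated last exon at the nearer site. With an unannotated nearer donor, the longer intron had a PSI of 0.769 in dTAG and 0.897 in Ctrl in *Spag1*, and of 0.931 in dTAG and 0.851 in Ctrl in *Rab27a*, which encodes a GTPase of secretion. None of these 25 was called, and the smallest difference was that of the replication clamp loader gene *Rfc1* (0.992 in dTAG, 0.983 in Ctrl).

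**Figure D3:**
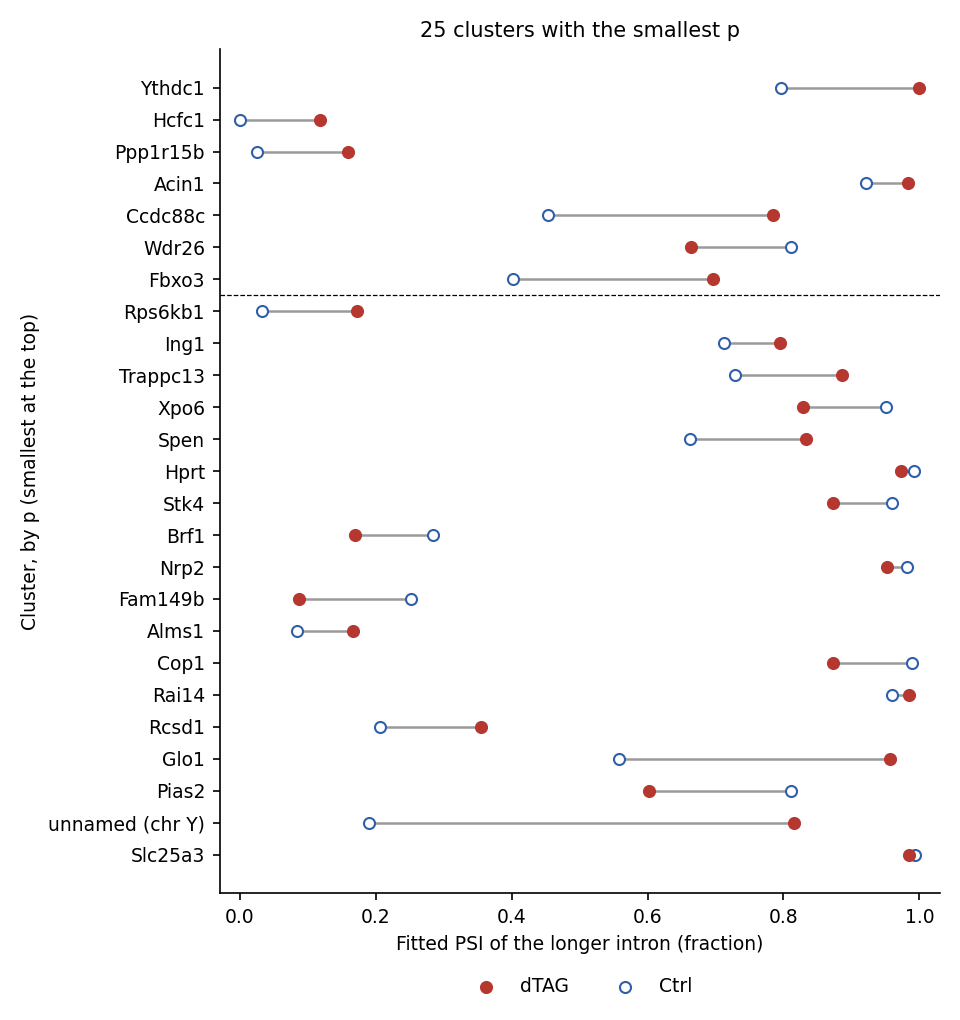
Fitted PSI of the longer intron (x axis, fraction) in dTAG (filled red) and Ctrl (open blue) for the 25 clusters with the smallest p, from top to bottom. The 7 clusters above the dashed line were called. The longest line belongs to an unnamed cluster on chromosome Y, which has a p of 0.0218 and was not called.

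The largest deltaPSI of the 493 was 0.63, in an unnamed cluster at chrY:90799837-90804596, with a PSI of 0.815 in dTAG and 0.19 in Ctrl, a p of 0.0218 and an adjusted p of 0.545. Neither of its introns is annotated, and the cells are labelled female. Both of its alternative acceptors lie in soft-masked repeats and have nearly the same sequence. The part of mapping in this value was not tested. An absolute deltaPSI of at least 0.1 was found in 36 clusters (7.30%), against 3.77% of all clusters of 2 introns with a shared site and 4.63% of all tested clusters, where the largest value among all introns of a cluster counts. Of the 36, 20 were higher and 16 lower in dTAG, 6 were called and 13 had a p above 0.05. The 5 largest of these 13 were *Hmgb1*, a chromatin-bound DNA-bending protein (0.766 in dTAG, 0.436 in Ctrl, p of 0.185), *Kpna2*, an importin alpha (0.515 in dTAG, 0.786 in Ctrl, p of 0.199), *Xlr5a* (0.106 in dTAG, 0.346 in Ctrl, p of 0.0665), and 2 unnamed clusters on chromosomes 12 (0.604 in dTAG, 0.307 in Ctrl, p of 0.221) and 17 (0.205 in dTAG, 0.497 in Ctrl, p of 0.121). A difference in fitted share of this size was therefore not by itself enough for a small p. In the unnamed cluster on chromosome 17 both alternative acceptors lie in soft-masked repeats and neither intron is annotated. The splice sites of the unnamed cluster on chromosome 12 have nearly the same sequences, and the part of mapping was not tested in either. For most clusters the 2 conditions lay close together, with an absolute deltaPSI under 0.05 in 402 of 493 and a median of 0.0163 (quartiles 0.0056 and 0.038). The major form differed between dTAG and Ctrl in 10 clusters, 3 of them with a p of at most 0.05 (*Ccdc88c*, *Fbxo3* and the cluster on chromosome Y).

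The annotated exon at the nearer site sorted the clusters into kinds. In 16 clusters an annotated exon runs across the whole alternative part, so that the longer intron removes a stretch that is exon in another transcript. Of these 16, 3 were called (*Ythdc1*, *Hcfc1* and *Ppp1r15b*) and 6 had a p of at most 0.05. Over all tested clusters 0.702% were called and 6.84% had such a p, and over the 493 it was 1.42% and 10.1%. The longer intron was higher in dTAG in 5 of the 6, with *Rps6kb1* and *Alms1* beside the 3 called ones, and lower in *Ccnl2*, a cyclin L gene (0.57 in dTAG, 0.699 in Ctrl). It was the minor form in Ctrl in 10 of the 16. Its median Ctrl PSI over the 16 was 0.0591, so many of these clusters had little room to fall. The median absolute deltaPSI over the 16 was 0.0247, against 0.0163 over all 493. The other 10 clusters had p of 0.0599 or more, among them *Mrpl15* (0.0623 in dTAG, 0.0389 in Ctrl), *Hnrnpu* (0.0218 in dTAG, 0.0124 in Ctrl) and *Cep295* (0.0737 in dTAG, 0.0776 in Ctrl).

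The nearer site joined only an annotated first exon in 78 clusters, of which 7 had a p of at most 0.05 (3 with the longer intron higher in dTAG, 4 lower) and 1, *Acin1*, was called. An internal exon stood there in 89 clusters, with 6 at that threshold (3 higher, 3 lower) and *Ccdc88c* called. For a last exon it was 50 clusters, with 9 at that threshold (5 higher, 4 lower) and *Fbxo3* called. In 21 clusters transcripts disagreed on the kind of exon, and of these *Wdr26* alone had a p of at most 0.05. The shorter intron was not annotated in 239 clusters, of which 21 had a p of at most 0.05 (14 higher, 7 lower) and none was called by the likelihood-ratio test. The shorter intron was rarer where only the longer was annotated, with a median PSI in Ctrl of 0.0555, than where both were annotated, with 0.139. No difference between these kinds of cluster was tested.

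**Figure D4:**
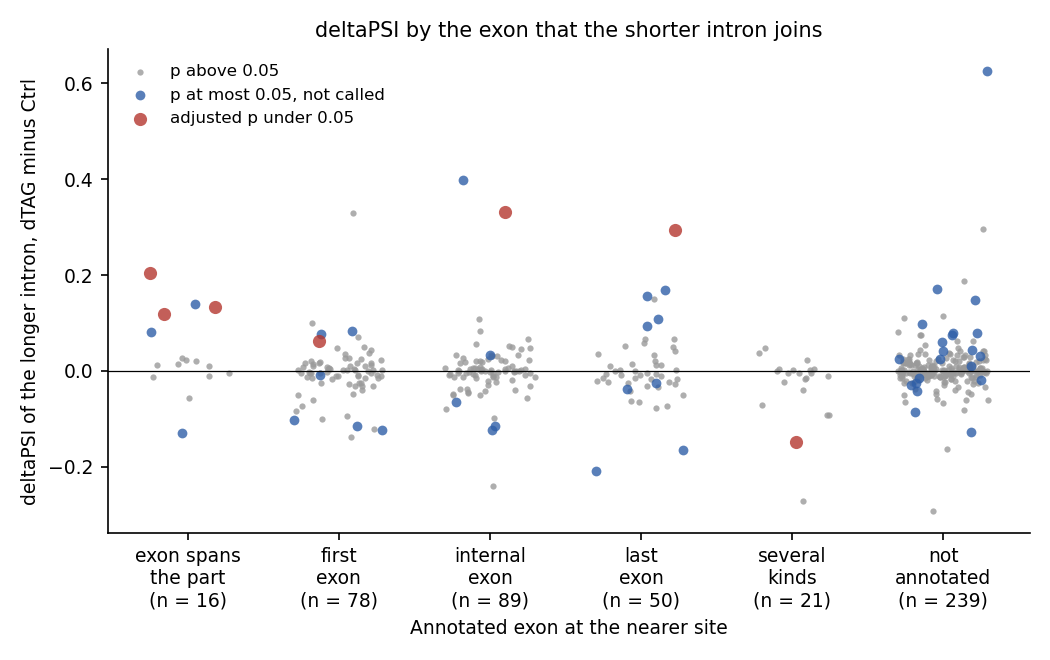
deltaPSI of the longer intron (dTAG minus Ctrl, y axis, as a fraction) for the 493 clusters, by the annotated exon that the shorter intron joins at the nearer site (x axis, n below each name). Red points are called, blue have a p of at most 0.05 without being called, and grey the rest, with points spread sideways at random. In the group at the left, 5 of the 6 coloured points lie above 0, while the other groups hold coloured points on both sides or few of them. The longer intron of the group at the left had a median Ctrl PSI of 0.0591, with little room to fall in many clusters.

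Intronic m6A peaks, which the authors called from chromatin-associated RNA of other samples, lay in the alternative part on the gene's strand in 17 of the 493 clusters (3.45%). Such a peak was in 7 of the 50 clusters with a p of at most 0.05 (14%) and in 10 of the 443 with a larger p (2.26%), and the sites lay a median of 2834.5 nt apart in the 50 and 2772 nt in the 443. Of the 7 clusters called, *Ythdc1* alone had an intronic peak, with 4 in the part. Peaks that the authors classed as exonic were not searched. In *Hcfc1* and *Ppp1r15b* an annotated exon runs across the part, so the lack of an intronic peak there does not show that m6A is absent. The other clusters were *Spen* with 5, *Ttc3*, a ubiquitin ligase gene, with 7, and *Trappc13*, *Stk4*, *Kif18a* and *Orc5* with 1 each. The longer intron was higher in dTAG in 4 of the 7, namely *Ythdc1*, *Trappc13*, *Spen* and *Ttc3* (0.851 in dTAG, 0.684 in Ctrl, p of 0.0324). It was lower in *Stk4*, in *Kif18a*, which encodes a spindle kinesin (0.925 in dTAG, 0.967 in Ctrl, p of 0.033), and in *Orc5*, a gene of the origin recognition complex whose cluster carries a second gene name (0.954 in dTAG, 0.979 in Ctrl, p of 0.0479). Among the 10 with a larger p, *Brca2* was nearest to the threshold (0.865 in dTAG, 0.964 in Ctrl, p of 0.0518), while *Ptma*, *Mtrex*, *Son* and *Ticrr* had deltaPSI between -0.00466 and 0.00346.

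In *Ythdc1*, *Spen* and *Kif18a* a peak overlapped the last 250 bases of the alternative part before the nearer donor, which are shown for this reason with each GGACT, the core of the m6A consensus, in capitals (RNA strand only).
*Ythdc1*, chr5:86829230-86829479 (+): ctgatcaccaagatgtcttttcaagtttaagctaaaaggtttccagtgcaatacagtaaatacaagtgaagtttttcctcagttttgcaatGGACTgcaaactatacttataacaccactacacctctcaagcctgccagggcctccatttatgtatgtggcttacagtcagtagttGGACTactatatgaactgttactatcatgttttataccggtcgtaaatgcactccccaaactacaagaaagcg
*Spen*, chr4:141520859-141521108 (-): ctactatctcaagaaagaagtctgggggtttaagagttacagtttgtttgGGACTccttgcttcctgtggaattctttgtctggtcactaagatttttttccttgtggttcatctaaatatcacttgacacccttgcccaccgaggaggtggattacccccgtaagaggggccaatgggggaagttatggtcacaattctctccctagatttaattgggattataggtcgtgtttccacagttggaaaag
*Kif18a*, chr2:109312202-109312451 (+): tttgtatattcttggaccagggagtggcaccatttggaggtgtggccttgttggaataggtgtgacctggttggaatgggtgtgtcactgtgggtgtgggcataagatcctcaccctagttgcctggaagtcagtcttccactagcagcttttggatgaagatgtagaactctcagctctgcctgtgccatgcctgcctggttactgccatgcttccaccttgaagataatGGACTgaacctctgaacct
The motif occurred 2 times in the *Ythdc1* stretch and 1 time each in those of *Spen* and *Kif18a*. The longer intron had the higher PSI in dTAG in *Ythdc1* and *Spen* and the lower one in *Kif18a*, and of the 3 only *Ythdc1* was called. At least 1 GGACT was present in the same 250 bases next to the nearer site in 129 of the 493 clusters (26.2%), so its presence is common, and a match marks no methylated base.

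*Spen*, like *Ythdc1*, is among the 307 alternative 5′ splice sites. Unlike *Ythdc1*, it is not among the 16 clusters in which an annotated exon runs across the alternative part. The competing *Spen* donors are given for comparison with those above.
*Spen* farther donor, chr4:141522052-141522081 (-): gactcgatggGTaagttccaaggtttcggt
*Spen* nearer donor, chr4:141520839-141520868 (-): gttggaaaagGTtggtatgtcctgacctgt
The longer *Spen* intron (chr4:141517319-141522071, 4753 nt) is annotated and the shorter one (chr4:141517319-141520858, 3540 nt) is not. The shorter intron had a PSI of 0.167 in dTAG and 0.337 in Ctrl. Its farther donor matched CAGGTAAGT at 7 of 9 bases and the nearer one at 6 of 9.

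Across the 307 alternative 5′ splice sites the farther donor matched CAGGTAAGT (gene strand, position by position) at a median of 7 of 9 bases and the nearer donor at 6. The farther donor had more matches in 145 clusters, the nearer in 78, and they were equal in 84. At least 7 matches were found in 50.8% of farther and 33.2% of nearer donors, against 40.8% of the 13986 donors in the tables. Where they differed, the donor with more matches was the major form in Ctrl in 140 of 223 clusters. The farther donor had more matches in 145 of these 223. Over both kinds of alternative site, the longer intron was the major form in Ctrl in 82.8% of clusters. The 140 were not set against the count that these shares alone would give. A link between matches and the major form was therefore not tested. Among the 29 with a p of at most 0.05 the farther donor had more matches in 13, the nearer in 2, and 14 were equal. For the 186 alternative 3′ splice sites the 18 bases before the AG held a median of 14 C or T at the farther and 13 at the nearer acceptor, with the farther richer in 91 and the nearer in 64.

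Some nearer sites lie in repeats. Both bases of the splice dinucleotide were soft-masked at 80 of 493 nearer sites (16.2%) and at 55 farther sites (11.2%), against 11.7% of the 27539 splice sites in the tables. Where the shorter intron was not annotated, the share was 21.8% at nearer and 9.62% at farther sites. Acceptors were masked more often than donors at both, with 24.2% of nearer and 20.4% of farther acceptors against 11.4% of nearer and 5.54% of farther donors. Among the 50 clusters with a p of at most 0.05, 14 nearer sites were masked (28%), against 66 of 443 in the rest (14.9%). These 14 were *Wdr26*, *Fbxo3*, *Fam149b*, *Glo1*, *Pias2*, the cluster on chromosome Y, *Pgap1*, *Nsd1*, *Smc5*, *Kif18a*, *Tbc1d15*, *Spag1*, *Rfc1* and *Ssh1*, and the longer intron was higher in dTAG in 8 of them. Farther sites were masked in 9 of the 50 (18%) and in 46 of the 443 (10.4%), with the farther donor of the called *Acin1* cluster among the 9. The nearer acceptor of *Glo1* is shown because of its long run of pyrimidines.
*Glo1* farther acceptor, chr17:30596459-30596493 (-): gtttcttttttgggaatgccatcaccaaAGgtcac
*Glo1* nearer acceptor, chr17:30597638-30597672 (-): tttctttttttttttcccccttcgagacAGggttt
Here the nearer acceptor had C or T at 14 of 18 bases before the AG and the farther at 8 of 18, and the nearer was used at a PSI of 0.0429 in dTAG and 0.442 in Ctrl. The shorter *Glo1* intron is annotated only in nonsense-mediated decay transcripts. Reads in repeats map less surely, and the part of mapping in these values was not tested.

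Gene lists, made with earlier results of these data known, gave few members each. Of 17 genes of the m6A machinery, *Ythdc1* and *Spen* had 1 cluster each among the 493, both with a p of at most 0.05 and the longer intron higher in dTAG. Such a p was found in 10.1% of the 493 and in 6.84% of all tested clusters. The authors had already reported both genes as changed in these data, so their place on the list is no independent result. Splicing and RNA-binding genes (73 on the list) had 7 clusters, of which *Acin1* was called and the others (*Hnrnpu*, *Syncrip*, *Snrnp70*, *Taf15* and 2 in *Celf1*) had p of 0.112 or more. Chromatin regulators (60 genes) had 8 clusters, of which *Atrx*, a remodeller (0.973 in dTAG, 0.988 in Ctrl, p of 0.0268), and *Nsd1*, a histone methyltransferase (0.915 in dTAG, 0.953 in Ctrl, p of 0.031), passed the unadjusted threshold. Genes of cleavage, polyadenylation and RNA decay (41 on the list) had 4 clusters, in *Papola*, *Zcchc8*, *Mtrex* and *Upf2*, with p from 0.096. Pluripotency genes (30 on the list) had 4, in *Tbx3*, *Sall4* and 2 in *Tcf3*, with p from 0.087. *Sall4*, the zinc finger factor of stem cells, had 0.679 in dTAG and 0.677 in Ctrl.

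Set beside other clusters of 2 introns with a shared site, those with sites over 1000 and up to 10000 nt apart had shares near those of their neighbours in distance and above those of close sites. Calls made up 1.42% of the 493, against 1.52% of 527 clusters with sites over 150 and up to 1000 nt apart, 1.74% of 172 with sites over 10000 nt apart, 0.119% of 838 at over 30 and up to 150 nt and 0 of 1418 at up to 30 nt, where 62 had an unadjusted p of at most 0.05 in the same likelihood-ratio test. An absolute deltaPSI of at least 0.1 was found in 7.30% of the 493, against 6.07%, 9.30%, 2.39% and 1.83% in that order, and its median was 0.0163, against 0.0157, 0.0242, 0.014 and 0.0138. Intronic m6A in the alternative part was found in 3.45% of the 493, against 1.52% at over 150 and up to 1000 nt and 9.30% beyond 10000 nt, parts that differ in length by construction. The median Ctrl PSI of the longer intron was 0.908 in the 493, against 0.862 at over 150 and up to 1000 nt and 0.19 at over 30 and up to 150 nt. These differences between distances were not tested.

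**Figure D5:**
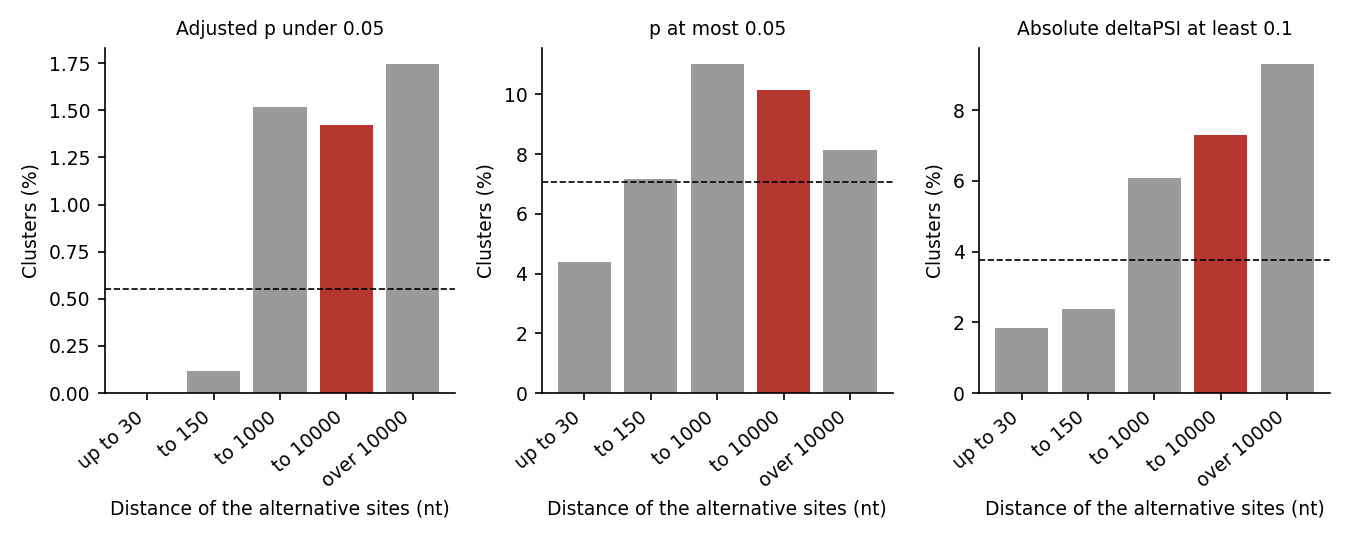
Share of clusters of 2 introns with a shared site (y axis, %) that were called (left), had a p of at most 0.05 (middle) or an absolute deltaPSI of at least 0.1 (right), by the distance of the alternative sites in nt (x axis, each class named by its upper limit). Bars start at 0, the red bar is the class of over 1000 and up to 10000 nt, and dashed lines give the share over all 3448 such clusters. The red bar lies above the dashed line in each panel and beside bars of like height.

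At the edges of the distance range, *Rcsd1* was nearest inside the lower limit (1004 nt) and *Supv3l1* nearest outside it (999 nt, PSI of 0.91 in dTAG and 0.902 in Ctrl, p of 0.75). At the upper limit *Cast* was nearest inside (9957 nt, 0.612 in dTAG and 0.622 in Ctrl, p of 0.842) and *Bicral* nearest outside (10009 nt, 0.879 in dTAG and 0.861 in Ctrl, p of 0.72). Several genes held more than 1 of the 493 clusters, 26 in all and at most 3 in a gene, so these clusters share a gene. In each of *Trappc13*, *Xpo6*, *Nrp2*, *Smc5*, *Vps13b*, *Atrx* and *Ccdc88c* 1 of the 493 clusters had a p of at most 0.05. The other clusters of the same gene among the 493 had a larger p. Outside the 493, *Hcfc1*, *Acin1* and *Wdr26* had 2, 4 and 1 other tested clusters, with p of at least 0.376, 0.149 and 0.251 in that order, while *Ppp1r15b* and *Fbxo3* had none. *Ccdc88c* had 3 others, its second cluster of the 493 among them, with a smallest p of 0.00248, an adjusted p of 0.175 there and an absolute deltaPSI of up to 0.241 among them.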

How the data were processed

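The 12 samples are 4sU-seq libraries of dTAG (6) and Ctrl (6) cells. The authors aligned stranded reads to mm10 with STAR 2.5.2b, kept unique mappers and ran LeafCutter on split reads, with both clones in 1 comparison and at least 30 split reads asked for. The deposited tables give, for each intron, a fitted PSI (percent spliced in) per condition as a fraction and a fitted effect on the natural log scale, and for each cluster a log-likelihood ratio score, its degrees of freedom and a p-value. The p-value was recomputed from the deposited score and degrees of freedom (chi-square), with a largest difference of 7.63e-15, and adjusted by Benjamini-Hochberg over 7263 tested clusters. The authors' own deltaPSI and adjusted p-value columns were not used. 1443 clusters were not tested. No per-sample values are used, depth is unknown, and the p-values test dTAG against Ctrl over these samples, 3 per clone and condition. Both clones were pooled, no covariate for clone is stated, and agreement between the clones could not be assessed.

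Deposited positions are the exon bases that flank an intron, since GT-AG, GC-AG or AT-AC ends lay between them in 99.9% of 20437 introns on GRCm38. Introns are given here by their first and last base. Exon kinds come from GENCODE vM21, and repeats are the soft-masked bases of the RefSeq FASTA. Intronic m6A peaks (959, in confidence groups 1 and 2) were used by position only, and peaks classed as exonic were not searched. The test and the cluster rule were tested on simulated data. Python 3.11.15, scipy 1.17.1, statsmodels 0.14.6, pysam 0.24.0 and samtools 1.23.1 were used.

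Members and gene lists were chosen with earlier results of these data known. Named were members with an adjusted p under 0.05, up to 25 by p, the 10 largest absolute deltaPSI with p of at most 0.05, those with intronic m6A or on a list at that p, the 5 largest absolute deltaPSI above it, and those nearest the distance limits. Others were named after their values were seen.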

Additional observations from a re-analysis of the deposited data

How the results depend on the processing

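No paired analysis was possible because the tables hold 1 fitted PSI per condition over all replicates and clones, and leaving out a replicate was not run for the same reason. Of 39 values under other settings, 27 stayed within 1.5 times of the value reported. Called clusters numbered 4 with sites over 2000 nt apart, 4 after Benjamini-Yekutieli or Bonferroni adjustment and 13 at an adjusted p under 0.2. Of the 332 clusters with sites over 2000 nt apart, 34 had a p of at most 0.05, with the longer intron higher in dTAG in 18 (16 lower). With both introns annotated (235 clusters) 27 had a p of at most 0.05, 14 with the longer intron higher (13 lower), and 23 had an absolute deltaPSI of at least 0.1. An absolute deltaPSI of at least 0.05 was found in 91 clusters and of at least 0.2 in 11. The median absolute deltaPSI was 0.0259 in the 339 clusters whose rarer intron reached 0.05. Confidence group 1 peaks alone lay in 9 alternative parts. In a setting added after seeing the data, 5 calls were made without the 2 clusters with a PSI under 0.001 in a condition (*Ythdc1* and *Hcfc1*). Without read counts, the depth behind a single PSI, and so the difference that each cluster could have shown, is unknown.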
